A study of Homo sapiens with 12 samples.

Results

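The effect of the highest dose of 2,8-dihydroxyadenine (DHA) on mRNA of HK-2 cells, a human proximal tubule epithelial line immortalised with papillomavirus genes, was measured by comparing 3 libraries of cells kept for 72 h in medium with DHA at 240 ug/ml with 3 libraries of cells kept in medium alone. These 6 libraries, chosen by their labelled treatment, belong to a series of 12 that also holds DHA at 60 and 120 ug/ml. All groups share the same line and culture medium, and the sources used here give no carrier control and do not say whether the 3 libraries of a group are separate cultures, so the p-values reflect library-to-library spread alone, perhaps of technical origin. Values are a normalized signal summed over the annotated transcripts of a gene or given per transcript. Group values are mean ± SD over 3 libraries, and a feature was called at a limma adjusted p under 0.05 on the log2(value + 1) scale, which understates changes of low values.

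DHA is a poorly soluble purine that accumulates when adenine phosphoribosyltransferase, the enzyme that salvages adenine, is missing. Xanthine dehydrogenase then oxidises adenine to DHA, which precipitates in the renal tubule, where crystals meet the epithelial surface. Proximal tubule cells reabsorb solute and protein from the filtrate and depend on cell junctions, a basement membrane, lysosomes and mitochondrial respiration. The line kept only part of that identity. PAX8, a kidney lineage transcription factor, stood at 274 at 240 ug/ml and 231 in control (means), KRT19 at 354 and 299, and EPCAM at 161 and 236. In contrast LRP2 (megalin), HNF4A, SLC22A6 and SLC22A8 were listed at 0 in all 6 libraries, and CUBN, AQP1, SLC34A1 and ANPEP had means under 1 in both groups.

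The deposited totals were 791808 to 969479 at 240 ug/ml and 1143851 to 1228979 in control, and read depth is unknown. The second library at 240 ug/ml had the lowest total. Across genes, the log2 values correlated at 0.981 to 0.985 among the 240 ug/ml libraries, at 0.983 to 0.984 among controls and at 0.941 to 0.962 between the groups, a description over genes that share each library. Of 16789 genes tested, 19.7% were higher and 23.5% lower at 240 ug/ml, and these shares are the background for the counts below. In the gene lists, counts of 4 or fewer shifted by up to 2 when 1 library was left out. Levels are relative to the deposited scaling, as are list medians and counts given below without an equal-totals value. Scaling every library to an equal total shifted the log2 fold changes of single genes upward by a median of 0.39. With every library scaled to an equal total, the median log2 fold change over the tested genes moved up by 0.36, to 0.33, against -0.03 as deposited, and 7205 genes were higher and 1531 lower, so 82.5% of the calls were upward, against 45.6% as deposited.

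Of the 15 named genes with the highest log2 fold changes 11 were coding genes. CCND1, the G1 cyclin D1 (chr11:69641087-69654474), had 69.6, 69.6 and 60.7 at 240 ug/ml, against 6.7, 5.8 and 4.4 in control (log2 fold change 3.36, SE 0.18, limma adjusted p = 3.23e-06). All 3 treated libraries lay about an order of magnitude above the controls. ANGPTL4, a secreted inhibitor of lipoprotein lipase, had 151.5, 153.6 and 157.5, against 18.5, 16.7 and 14.4 in control. The GTPase-activating protein ARHGAP22 had 106.4, 126.2 and 87.2, against 15.3, 15.1 and 17.4 in control (2.65, SE 0.17). SCEL, a protein of the cornified envelope, had 33.4, 23.4 and 23.2, against 3.8, 2.9 and 3.4 in control (2.65, SE 0.15). SIGLEC15, a sialic acid-binding receptor, averaged 16.9 ± 2.58 at 240 ug/ml and 1.9 ± 0.173 in control (2.61, SE 0.14). Groups that do not overlap were a condition for naming these genes.

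**Figure D1:**
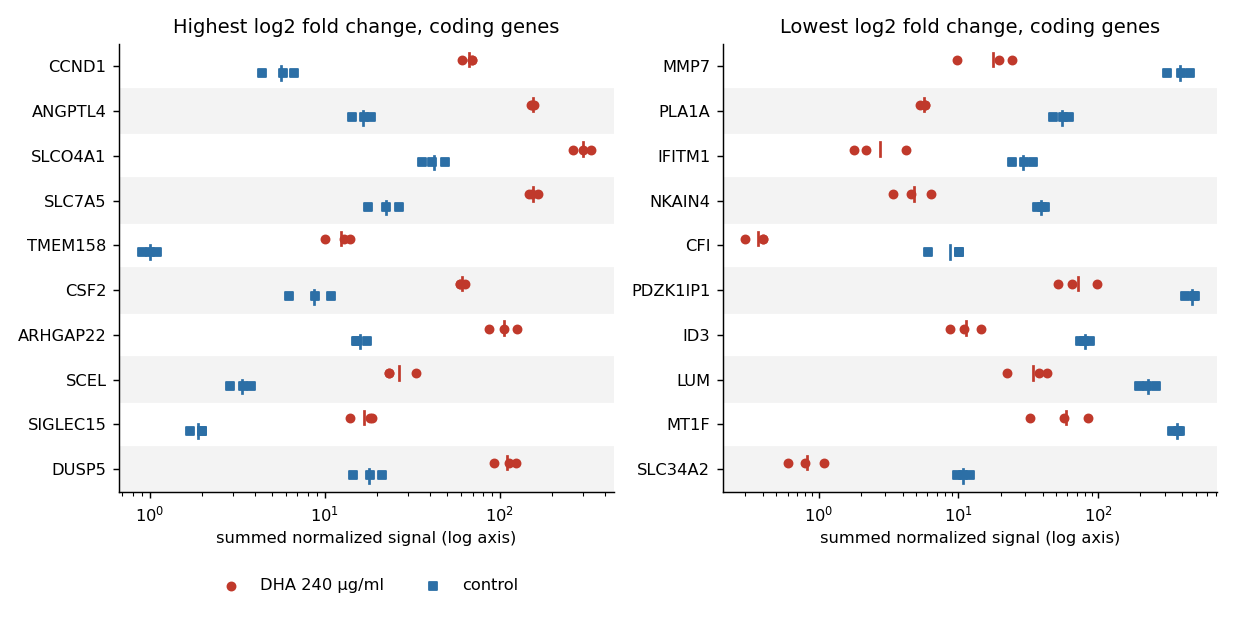
Summed normalized signal (log axis) of 10 of the named coding genes with the highest (left) and 10 of those with the lowest (right) log2 fold changes; circles are the 3 libraries at 240 ug/ml, squares the 3 controls and short lines the group means. Only called genes whose groups do not overlap were eligible, and MMP7 lies lowest relative to control, at 9.8 to 24.0 against 307.7 to 449.9.

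Of the 15 named genes with the lowest log2 fold changes 12 were coding genes. MMP7, the metalloproteinase matrilysin (chr11:102520508-102530753), had 19.6, 9.8 and 24.0 at 240 ug/ml, against 307.7, 387.6 and 449.9 in control (-4.42, SE 0.33, limma adjusted p = 8.16e-06). IFITM1, an interferon-induced antiviral membrane protein, had 4.2, 1.8 and 2.2, against 29.4, 34.0 and 24.2 in control (-3.06, SE 0.40). PDZK1IP1, a small membrane protein of the proximal tubule brush border, had 97.5, 51.2 and 65.2, against 483.5, 491.4 and 420.0 in control (-2.73, SE 0.22). Here too, treated values below every control value were a condition for naming the genes. SLC34A2, a sodium-phosphate cotransporter, had 1.1, 0.6 and 0.8, against 10.7, 12.1 and 9.7 in control (-2.69, SE 0.32). The metallothionein MT1F had 85.1, 32.7 and 57.2, against 385.3, 374.5 and 337.5 in control (-2.73, SE 0.29), and as a member of a family of near-identical genes its level is uncertain.

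The largest rises of mean level were in abundant genes with modest fold changes. PKM, the glycolytic pyruvate kinase, had 2235.9, 2003.1 and 2202.0 at 240 ug/ml, against 1418.3, 1389.6 and 1397.3 in control (0.61, SE 0.12). ITGA3, the integrin alpha 3 chain that binds laminin, had 851.1, 985.1 and 778.9, against 474.3, 450.5 and 399.0 in control (0.98, SE 0.13). TMSB10, an actin monomer-binding peptide, was among the largest falls, with 5562.1, 2719.0 and 4060.8 at 240 ug/ml, against 9906.4, 11314.7 and 10436.0 in control (-1.42, SE 0.24). The second library at 240 ug/ml was the lowest of its group for TMSB10.

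Genes of the ERK pathway's feedback and immediate early output, which growth factor receptors switch on within a short time of stimulation, rose in 23 of 34 tested cases and fell in 5, with a median log2 fold change of 0.88. Feedback inhibitors were among them. SPRY2, which restrains receptor tyrosine kinase signalling, had 37.7, 45.1 and 38.4 at 240 ug/ml, against 14.4, 15.4 and 11.8 in control (1.48). The ETS factor ETV4 had 37.7, 42.4 and 35.0, against 12.6, 12.4 and 9.3 in control (1.67, SE 0.13). JUN, a subunit of AP-1, had 71.3, 108.3 and 74.2, against 33.4, 34.6 and 34.5 in control (1.26). MYC, a growth-promoting transcription factor, was less changed, with 275.3, 296.2 and 276.8 against 176.0, 176.6 and 164.8 in control (0.71). The members did not all move one way: JUNB (-0.67), JUND (-0.59), DUSP16 (-0.51), IER5 (-0.33) and DUSP1 (-0.28) fell. EGR1, a zinc finger early response factor, had 3.1, 4.5 and 3.1, against 6.0, 5.4 and 5.4 in control, and was not called (limma adjusted p = 0.0866).

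Of 14 EGF family ligands and receptors tested, 4 were higher and 3 lower, with a median of 0.12. Among the ligands, EREG (epiregulin) had 66.2, 78.9 and 74.0 at 240 ug/ml, against 20.9, 20.1 and 21.6 in control (1.76, SE 0.17), and TGFA had 59.1, 49.6 and 50.3 against 30.9, 29.6 and 25.1 in control. HBEGF, another ligand of the same receptor, went the other way, with 28.6, 22.6 and 29.1 at 240 ug/ml against 46.8, 46.4 and 54.1 in control (-0.86, SE 0.13). ERRFI1, an inhibitor of the EGF receptor kinase, had 186.0, 191.4 and 156.7, against 54.8, 52.5 and 46.2 in control (1.78, SE 0.17).

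Among 17 G1 cyclins, CDKs and CDK inhibitors, 5 were higher and 7 lower, with a median of -0.15 as deposited and 0.26 with equal totals. Several inhibitors fell. CDKN1C (p57) had 5.5, 6.8 and 6.1 at 240 ug/ml, against 21.8, 23.6 and 22.2 in control (-1.73, SE 0.17), CDKN2C (p18) fell by 1.60 and CDKN1B (p27) by 0.78. The count of higher genes in that list was 3 when the second or the third library at 240 ug/ml or control replicate 1 or 2 was left out. Mitosis genes rose in 22 of 35 cases and fell in 4 (median 0.50), led by MKI67, the proliferation antigen, with 68.6, 72.7 and 77.5 at 240 ug/ml against 30.7, 28.6 and 40.8 in control (1.12, SE 0.18). Of 40 DNA replication genes 16 were higher and 1 lower (median 0.21), and leaving out 1 library left 9 to 16 higher, with 9 without control replicate 1 or 2 and 10 without the first or the third library at 240 ug/ml. MCM10, a factor that loads replication proteins, had 13.4, 14 and 18.4, against 4.9, 7.1 and 9.1 in control (1.04), and RPA3, a subunit of the single-strand binding protein, fell by 1.12.

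Cell junction genes changed member by member. Of 16 tight junction membrane proteins 3 were higher and 5 lower (median -0.13 as deposited, 0.26 with equal totals), and 2 were lower without control replicate 2 and 3 without control replicate 1 or the second or the third library at 240 ug/ml. CLDN1, claudin-1, had 346.6, 330.2 and 355.0 at 240 ug/ml, against 203.6, 197.5 and 219.2 in control (0.73, SE 0.09). F11R, the adhesion molecule JAM-A, had 47.3, 39.4 and 41.5, against 73.0, 74.0 and 69.0 in control (-0.74, SE 0.09). In the scaffold and polarity list 2 of 20 were higher and 5 lower, and CRB3, a crumbs family polarity protein, had 30.2, 21.6 and 29.9, against 53.7, 55.5 and 53.8 in control (-0.99, SE 0.12). TJP1, the scaffold ZO-1, was not called (0.16). Cadherins, catenins and desmosome genes were lower in 8 and higher in 2 of 17 (median -0.12 as deposited, 0.17 with equal totals). CDH16, the kidney-specific cadherin, had 3.2, 2.7 and 2.6, against 12.9, 14.8 and 10.9 in control (-1.85, SE 0.23), and JUP (plakoglobin) had 42.4, 41.7 and 34.5, against 79.5, 87.1 and 85.8 in control (-1.08, SE 0.14). CDH1, E-cadherin, was low in both groups, at 0.2 to 0.3 at 240 ug/ml and 1.3 to 2.7 in control (-1.19).

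Of 24 contractile and SRF target genes, which build and respond to actin stress fibres, 12 were lower and 3 higher (median -0.27 as deposited, 0.16 with equal totals). MYL9, a myosin regulatory light chain, had 199.0, 155.2 and 213.5 at 240 ug/ml, against 453.3, 462.1 and 656.9 in control (-1.46, SE 0.16), and the actin-binding calponin CNN3 fell by 1.15. The 18 YAP targets split, with 4 higher and 9 lower (median -0.33 as deposited, 0.08 with equal totals). CCN2 had 54.5, 36.2 and 49.5, against 110.1, 138.2 and 131.1 in control (-1.43, SE 0.17), whereas NT5E, the ectonucleotidase CD73, had 33.9, 31.8 and 30.5, against 9.0, 6.3 and 5.0 in control (2.12, SE 0.19). Intermediate filament genes split 4 higher and 3 lower of 11. KRT8 is understated here, because transcripts without a match in the annotation are left out of its sum. Other gene sums, and the shares within genes given below, can be incomplete for the same reason. Transcripts without a match whose mean over the 12 libraries was above 1 numbered 5101.

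Collagens and collagen-modifying enzymes fell in 13 of 24 cases and rose in 2 (median -0.58, and -0.15 with equal totals). COL4A1, a chain of basement membrane collagen IV, had 223.1, 176.6 and 212.6 at 240 ug/ml, against 603.1, 618.8 and 663.0 in control (-1.62, SE 0.11). LOXL2, an enzyme that crosslinks collagen, had 556.3, 443.9 and 413.1, against 1262.4, 1175.1 and 958.4 in control (-1.27, SE 0.20). SPARC, a collagen-binding matrix glycoprotein, had 368.4, 251.0 and 368.2, against 1821.2, 1947.2 and 2119.3 in control (-2.59, SE 0.17). Laminin and hemidesmosome genes were lower in 7 and higher in 2 of 14 (median -0.37 as deposited, 0.05 with equal totals). LAMB3, the laminin beta 3 chain, had 103.0, 108.9 and 92.2, against 41.3, 42.4 and 40.9 in control (1.26, SE 0.10), while LAMB2 fell by 0.92. Of 13 integrin subunits 3 rose and 4 fell, and one of those that fell was ITGB6, with 5.7, 5.6 and 6.5 at 240 ug/ml against 14.3, 16 and 18.5 in control (-1.31, SE 0.11).

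Metalloproteinases and their inhibitors were lower in 7 and higher in 1 of 13 (median -0.65 as deposited). TIMP2, an inhibitor, had 133.9, 137.6 and 137.8 at 240 ug/ml, against 208.5, 228.9 and 214.3 in control (-0.67, SE 0.10). Plasminogen activation genes were 3 higher and 3 lower of 8. Both activators rose: PLAT (tissue type) had 21.5, 18.8 and 13.8, against 3.1, 4.4 and 2.8 in control (2.10, SE 0.25), and PLAU (urokinase) averaged 735 ± 53 at 240 ug/ml and 307 ± 28.0 in control (1.26, SE 0.11). The urokinase receptor PLAUR also rose (0.92). Of 33 TGF-beta and BMP pathway genes 8 were higher and 11 lower (median 0.03). The BMP-induced factors ID3 and ID1 had 10.9, 8.7 and 14.5 and 89.0, 58.5 and 87.7 at 240 ug/ml, against 73.8, 86.7 and 78.7 and 272.5, 286.7 and 268.4 in control, with log2 fold changes of -2.73 and -1.83. TGFBI, a matrix protein named for its induction by TGF-beta, had 491.1, 294.2 and 350.2, against 1592.1, 1519.2 and 1244.9 in control (-1.96, SE 0.20), and INHBA, the activin beta A chain, rose (1.17, SE 0.29).

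Fibroblast and smooth muscle markers were lower too. Of 10 listed, 1 was at 0 in all 6 libraries and the 4 that passed the filter fell, and the list's summed level was 44.3 to 72.5 at 240 ug/ml and 281.4 to 366.0 in control. The proteoglycan LUM had 42.7, 22.2 and 37.8, against 257.7, 224.7 and 195.8 in control (-2.73, SE 0.24), and COL1A1 had 4.3, 5.1 and 4.7 against 18.1, 15.4 and 19.1 in control. Their part in the matrix results was not tested. In bulk libraries of a single line, fewer cells that express them and less of their RNA per cell cannot be told apart. Of 10 endothelial markers 3 were at 0 in all 6 libraries, and their sum was 1.0 to 1.5 at 240 ug/ml and 0.6 to 1.3 in control. Of 15 markers of other nephron segments 8 were at 0, and the sum of these markers was 4.9 to 6.2 at 240 ug/ml and 1.2 to 2.6 in control, mostly from ATP6V0D2. The sum of 7 podocyte markers, of which 2 were at 0, ran from 26.5 to 33.7 at 240 ug/ml and from 32.9 to 36.4 in control. That of 12 immune markers, of which 5 were at 0, came mostly from CD68 and ran from 89.0 to 114.4 at 240 ug/ml and from 120.4 to 150.9 in control.

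Of 15 proximal tubule transporters and enzymes tested, out of 34 listed, 9 were lower and 0 higher at 240 ug/ml (median -0.68, and -0.34 with equal totals, where 7 were lower and 1 higher). AGT, angiotensinogen, had 2.3, 2.5 and 2.3 at 240 ug/ml, against 15.5, 19.1 and 14.5 in control (-2.36, SE 0.22). ENPEP, a brush border aminopeptidase, had 18.6, 11.7 and 15.5, against 67.4, 57.0 and 48.9 in control (-1.86, SE 0.22), and DAB2, the endocytic adaptor of megalin, had 9.7, 7.0 and 8.2, against 25.4, 28.1 and 24.3 in control (-1.54, SE 0.18). Of 18 injury and repair markers 10 were lower and 2 higher (median -0.65 as deposited). HAVCR1 (KIM-1), which injured tubules shed, had 108.7, 87.0 and 95.9, against 266.2, 248.1 and 227.2 in control (-1.34, SE 0.17), and CLU (clusterin) had 55.3, 42.2 and 48.1, against 167.0, 179.7 and 107.7 in control (-1.60, SE 0.25). SOX9, a transcription factor of regenerating tubule cells, rose, with 7.8, 7.9 and 8.1 against 1.1, 1.1 and 1.3 in control (2.04, SE 0.17). The injury marker LCN2 was not called (-0.76).

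Molecules that bind crystals split 4 higher and 4 lower of 14 (median -0.29 as deposited, 0.14 with equal totals). CD44, a hyaluronan receptor, had 314.6, 297.0 and 288.0 at 240 ug/ml, against 150.9, 118.2 and 113.7 in control (1.24, SE 0.15). HAS3, a hyaluronan synthase, had 115.9, 109.7 and 114.4, against 76.3, 79.1 and 65.8 in control (0.62, SE 0.08), and ANXA4, an annexin, fell by 0.90. In the purine salvage and DHA metabolism list 7 of 18 were higher and 4 lower (median 0.21), with 4 higher when the third library at 240 ug/ml was left out. SLC43A3, a purine nucleobase transporter, had 174.2, 168.2 and 178.7, against 103.4, 95.6 and 96.6 in control (0.81, SE 0.07). ADA, adenosine deaminase, fell by 0.86 and ADK, adenosine kinase, by 0.57. Genes of de novo purine synthesis were higher in 8 and lower in 2 of 13 (median 0.47), among them PPAT, the committed step, with 46.4, 53.5 and 54.0 against 25.9, 23.3 and 28.6 in control (0.96, SE 0.11).

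Complement genes fell in 9 of 13 cases and rose in 0 (median -0.97, and -0.67 with equal totals, where 3 were higher and 8 lower), and C3, the central component, had 35.7, 27.8 and 28.5 at 240 ug/ml against 83.0, 78.9 and 62.1 in control (-1.25, SE 0.27). Of 30 interferon-stimulated genes 17 were lower and 3 higher (median -0.63 as deposited). IFITM3, which restricts the entry of viruses, had 26.8, 19.2 and 21.2, against 74.4, 81.5 and 65.3 in control (-1.68, SE 0.15). Class I antigen presentation genes were lower in 12 and higher in 2 of 17 (median -0.43 as deposited). The count of lower ones was 6 without control replicate 1 or 2 and 7 without the second or the third library at 240 ug/ml. B2M, the light chain of class I molecules, had 293.9, 206.3 and 295.1, against 684.5, 768.0 and 687.3 in control (-1.44, SE 0.16). Of 20 chemokines and cytokines 10 were lower and 4 higher (median -0.31 as deposited, 0.07 with equal totals). CCL2, which attracts monocytes, had 1.1, 0.4 and 1.6, against 7.1, 9.7 and 21.2 in control (-2.66, SE 0.36), whereas CSF2 (GM-CSF) had 63.0, 59.6 and 59.4, against 6.3, 8.8 and 10.9 in control (2.70, SE 0.19), and CXCL2 rose by 1.32. Of 15 NF-kB subunits and feedback genes 5 were higher and 2 lower, led by the feedback inhibitor TNFAIP3 (1.15).

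Unfolded protein and integrated stress response genes were higher in 17 and lower in 2 of 32 (median 0.37). ASNS, asparagine synthetase, a target of ATF4, had 160.0, 143.2 and 137.4 at 240 ug/ml, against 55.9, 47.7 and 56.6 in control (1.44, SE 0.11), and DDIT4, an inhibitor of mTORC1, had 376.4, 352.1 and 342.8, against 90.6, 68.4 and 83.4 in control (2.14, SE 0.28). NRF2 targets were higher in 10 and lower in 5 of 24 (median -0.01 as deposited, 0.42 with equal totals). TXNRD1, thioredoxin reductase, had 226.3, 226.2 and 263.0, against 86.9, 87.7 and 74.2 in control (1.51, SE 0.13), and HMOX1, haem oxygenase, had 83.7, 103.6 and 110.6 against 36.0, 40.5 and 34.3 in control (1.40, SE 0.17). AKR1C3, an aldo-keto reductase also on that list, fell by 2.35. Of 18 heat shock genes 7 were higher and 4 lower. The small heat shock proteins HSPB8 (-1.71), CRYAB (-1.39) and HSPB1 (-1.03) fell, and the chaperones HSPH1 (0.87), HSPD1 (0.77) and HSPA9 (0.75) rose. Metallothioneins and zinc handling genes had 3 higher and 5 lower of 12.

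Of 25 p53 targets 8 were higher and 10 lower (median 0.01), with GDF15, a stress cytokine, at 180.9, 220.0 and 175.6 at 240 ug/ml against 99.5, 108.3 and 86.1 in control (0.96, SE 0.13). Among 16 BCL2 family genes 2 were higher and 7 lower (median -0.26 as deposited, 0.17 with equal totals). BMF, a pro-apoptotic BH3-only protein, had 4.2, 6.0 and 3.4, against 23.9, 25.3 and 20.5 in control (-2.15, SE 0.31), the pro-survival BCL2 fell by 1.19 and the BH3-only PMAIP1 (NOXA) rose by 0.96.

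Metabolic genes changed in both directions. Glycolytic and hypoxia-inducible genes were higher in 21 and lower in 0 of 35 (median 0.53). HK2, hexokinase 2, had 56.5, 55.9 and 54.2 at 240 ug/ml, against 17.5, 14.4 and 14.3 in control (1.79, SE 0.15), and VEGFA, the vascular growth factor, had 186.4, 227.6 and 162.6, against 48.8, 35.7 and 38.0 in control (2.21, SE 0.17). Amino acid transporters were higher in 11 and lower in 5 of 23 (median 0.33), and the count of lower genes was 1 without the third library at 240 ug/ml or control replicate 1, 2 without the second library at 240 ug/ml or control replicate 2, and 3 without control replicate 3. SLC7A5 and its partner SLC3A2, which together import large neutral amino acids, had 146.3, 164.8 and 152.3 and 110.0, 107.0 and 124.9 at 240 ug/ml, against 22.5, 17.8 and 26.6 and 45.8, 40.9 and 46.1 in control. Their log2 fold changes were 2.75 and 1.34. Sterol synthesis genes fell in 10 of 25 cases and rose in 1 (median -0.24 as deposited, 0.16 with equal totals, where 6 rose and 2 fell). Fatty acid oxidation genes fell in 11 of 22 and rose in 2 (median -0.30 as deposited, 0.10 with equal totals), and DECR1, a dienoyl-CoA reductase, had 51.8, 40.7 and 46.6, against 102.5, 113.5 and 108.7 in control (-1.21, SE 0.11).

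Lysosomal genes were lower in 29 and higher in 2 of 41 (median -0.48, and -0.09 with equal totals, where 14 were lower and 6 higher). NPC2, which hands cholesterol to the lysosomal membrane, had 364.9, 211.4 and 294.7 at 240 ug/ml, against 942.1, 947.8 and 866.6 in control (-1.69, SE 0.18), and SMPD1, acid sphingomyelinase, fell by 1.32. In the ATG8 and autophagy receptor list 11 of 21 were lower and 2 higher (median -0.38 as deposited, 0.05 with equal totals). GABARAPL1, an ATG8 protein of autophagosomes, had 76.6, 51 and 56.1, against 234.2, 204.8 and 166.5 in control (-1.71, SE 0.20), and the mitophagy receptor BNIP3 had 462.3, 338.2 and 430.6, against 230.6, 177.7 and 200.9 in control (1.01, SE 0.28).

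Among the lists, the calls were most uniform for the 78 ribosomal protein mRNAs, of which 78 were lower, with a median of -1.15. RPL13A, a large subunit protein, had 1269.0, 749.9 and 974.3 at 240 ug/ml, against 3466.3, 3309.4 and 2538.1 in control (-1.66, SE 0.21). The count was 70 lower and 0 higher with equal totals (median -0.72), and 76 lower with each library's length trend subtracted (median -0.94). Of 71 nuclear respiratory chain subunits 50 were lower and 1 higher (median -0.72), with 33 lower and 10 higher under equal totals and 43 and 2 with the length trend subtracted. COX7C, a cytochrome oxidase subunit, had 336.1, 179.4 and 270.4, against 905.2, 805.5 and 736.2 in control (-1.68, SE 0.23). The second library at 240 ug/ml, which has the lowest total, was the lowest for both genes. Of 13 mitochondrially encoded mRNAs 6 were lower, 3 without control replicate 1, and MT-CO3 had 10019.9, 6741.6 and 8563.9, against 25821.7, 21917.7 and 23542.3 in control (-1.51, SE 0.26).

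**Figure D2:**
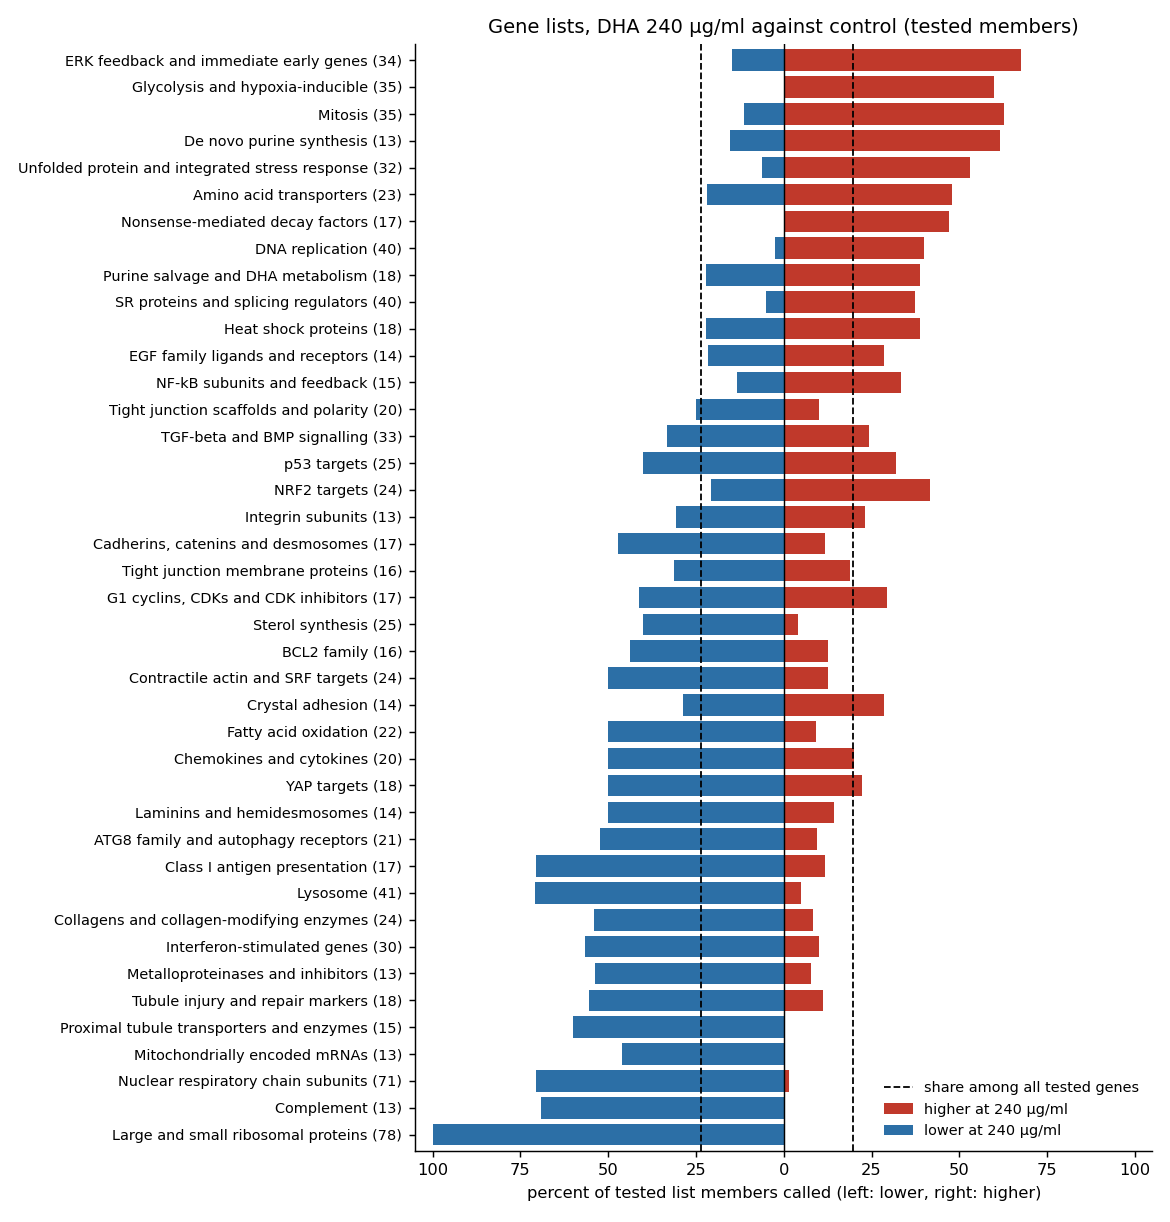
Percent of each list's tested members (number in brackets) called higher (right, red) or lower (left, blue) at 240 ug/ml, for lists with 13 or more tested members, ordered by median log2 fold change; dashed lines mark the share among all 16789 tested genes, 19.7% higher and 23.5% lower. The ERK list stands at the top, with 23 of 34 higher, and the ribosomal proteins at the bottom, with 78 of 78 lower.

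RNA processing genes were more often higher than lower. Of 40 SR proteins and splicing regulators 15 rose and 2 fell (median 0.19), and HNRNPU, an RNA- and scaffold-binding protein, had 559.4, 543.5 and 681.2 at 240 ug/ml, against 342.0, 348.8 and 383.1 in control (0.73, SE 0.16). Of 17 nonsense-mediated decay factors 8 rose and 0 fell (median 0.22). UPF1, the helicase of this pathway, had 66.2, 79.0 and 71.7, against 48.5, 51.5 and 48.0 in control (0.54, SE 0.08), and the kinase SMG1 rose by 0.77.

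At the level of single transcripts 5956 of 61128 (9.74%) were higher and 6505 (10.6%) lower, and 3857 were higher without the second library at 240 ug/ml. Transcript classes of coding genes differed in their split. Protein-coding transcripts had 3280 higher and 4489 lower of 30065, with a median log2 fold change of -0.02. Retained-intron transcripts, which keep intron sequence and are not translated as annotated, had 953 higher and 306 lower of 8963, with a median of 0.18. They made up 5.74%, 6.99% and 6.04% of the signal of coding genes at 240 ug/ml, against 4.86%, 4.73% and 4.87% in control. Their summed level was 50215.1, 49510.6 and 48880.2 at 240 ug/ml, against 53696.4, 51193.3 and 50214.2 in control. The groups overlapped only in that the first library at 240 ug/ml lay just above the third control. The summed level of protein-coding transcripts was 605467 to 767293 at 240 ug/ml and 924937 to 992652 in control. The median length of a tested transcript was 753 bases for the retained-intron class and 1952 for the protein-coding class. The retained-intron count of higher transcripts was 940 with the length trend subtracted, 540 with a minimum value of 5, 509 without the second library at 240 ug/ml, 583 without control replicate 2, and 2388 with equal totals. The count of lower ones was 136 with equal totals and 200 without control replicate 1.

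To separate a change of transcript use from a change of gene level, each transcript was set against the sum of its gene's other matched transcripts. Of 45680 transcripts in 8934 genes, 1764 (3.86%) took a higher and 1154 (2.53%) a lower share at 240 ug/ml, in 1810 genes. The pseudocount alone can move a weak transcript when its gene changes, and 910 of the 2918 calls were also called on the share itself. Calls of 10 percentage points or more numbered 321 higher and 536 lower, in 680 genes, and the summed level of 303 of these genes was not called. Leaving out 1 library moved the counts to between 521 and 1449 higher and between 353 and 840 lower, fewest without the second library at 240 ug/ml. The higher count was also 742 without the third library at 240 ug/ml and 680, 636 and 1068 without control replicates 1, 2 and 3, and the lower count 496, 429, 414 and 624.

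A switch was counted where all 3 libraries of each group had the same main transcript, the groups differed in it, and both transcripts passed the share test in opposite directions. Of 7161 genes with one main transcript in each group 126 (1.76%) had a different one at 240 ug/ml, and 28 of the 8934 tested genes (0.313%) met the full definition. Of these 28, 13 were not called as a gene sum, 7 were higher and 8 lower. The switch was between coding transcripts in 13 genes, and both shares were also called on the share itself in 15. Leaving out 1 library left 7 to 17 switches: 7 without the second library at 240 ug/ml, 17 without the first and 14 without the third, and 10, 10 and 14 without control replicates 1, 2 and 3.

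SQOR, the mitochondrial sulfide-quinone oxidoreductase, switched between coding transcripts. SQOR-201 had 66.3, 50.2 and 58.7 at 240 ug/ml, against 41.0, 39.1 and 36.6 in control, and SQOR-208 had 21.4, 16.9 and 19.3, against 63.2, 70.4 and 51.7 in control. SQOR-201 thus held 71.1% ± 0.949 of the gene's signal at 240 ug/ml and 36.9% ± 2.62 in control (limma adjusted p = 8.78e-04 for its share). In FOXO3, a stress-responsive transcription factor, FOXO3-202 had 11.3, 13.4 and 13.4, against 6.4, 6.1 and 6.8 in control, while FOXO3-201 had 5.0, 5.2 and 2.9, against 10.1, 9.9 and 8.3 in control. FOXO3-202 held 74.5% ± 6.79 of the gene at 240 ug/ml and 40.5% ± 3.47 in control. For the mitotic kinesin KIF14 the main transcript was KIF14-202 at 240 ug/ml (61.2% ± 6.27, against 41.5% ± 1.55 in control), and KIF14-201 held the rest.

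In 6 genes the main transcript changed from a coding to another class. TMEM39B had its decay-class transcript TMEM39B-203 at 12.3, 12 and 11.2 at 240 ug/ml, against 7.3, 6.8 and 5.1 in control, while the coding TMEM39B-201 had 8.1, 4.8 and 7.2 against 11, 13.3 and 13.8 in control. BATF3, an AP-1 family factor, gained BATF3-202, which is annotated as a processed transcript and held 51.9% ± 4.07 of the gene at 240 ug/ml and 18.7% ± 7.14 in control. EIF4A2, a translation initiation helicase, had the coding EIF4A2-201 at 30.7, 14.7 and 36.3 at 240 ug/ml against 104.0, 104.6 and 62.7 in control, and the decay-class EIF4A2-202 at 72.9, 79.3 and 72.0, against 44.7, 45.2 and 39.7 in control. The EIF4A2 sum was not called (0.16). In ZNF350, a zinc finger repressor, the 165-base ZNF350-207 had 10.7, 7.3 and 7.2 at 240 ug/ml and was listed at 0 in all 3 controls. On the share itself neither ZNF350-207 nor the coding ZNF350-201 was called (limma adjusted p = 0.117 and 0.0684). CKMT1B and NBPF9 also met the definition, but each has near-identical copies between which reads could be split.

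**Figure D3:**
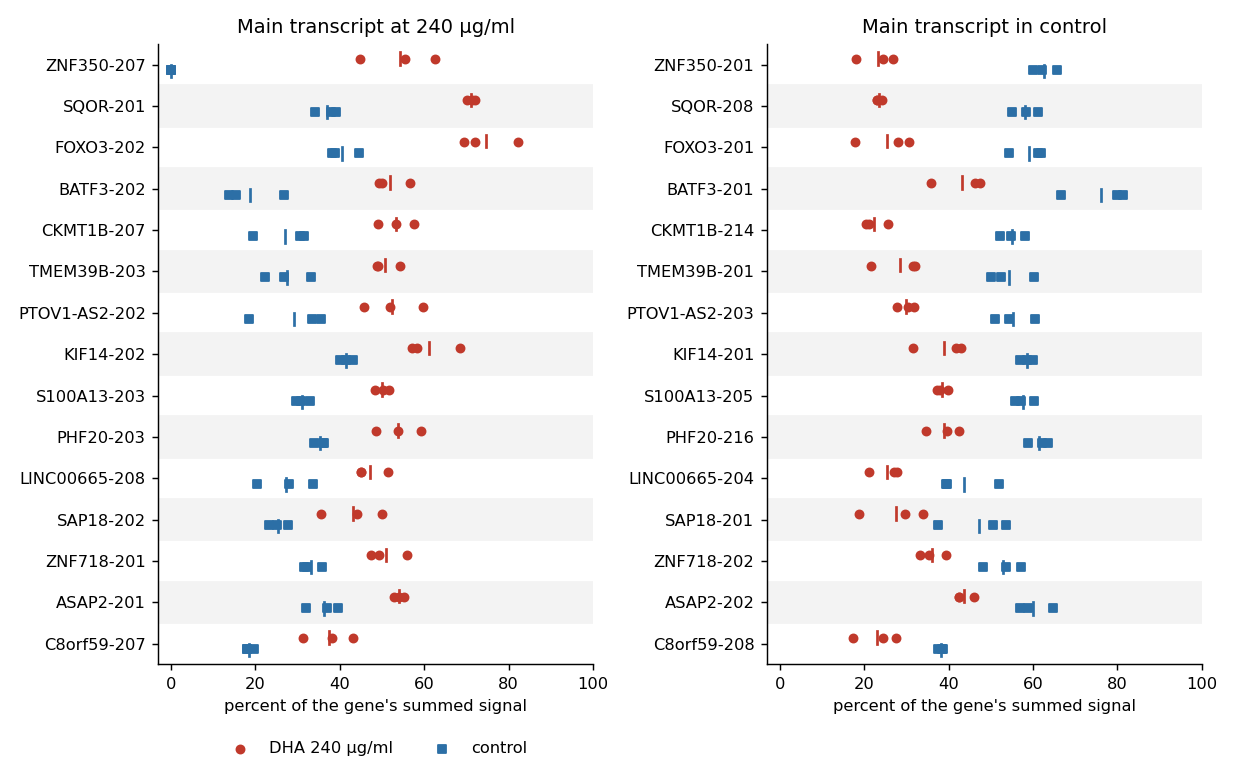
Percent of the gene's summed signal held by the main transcript at 240 ug/ml (left panel) and by the main transcript in control (right panel), for the 15 switches with the largest smaller change of the pair; circles are libraries at 240 ug/ml, squares controls and short lines means. In every row shown the 2 groups do not overlap, as in SQOR-201 with 71.1% at 240 ug/ml and 36.9% in control.

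FN1, fibronectin, was an example of opposed transcripts under a gene sum that was not called. Fibronectin is a matrix protein whose alternative exons, the extra domains A and B, are known from fetal and healing tissue and are largely skipped in the plasma form. Its summed level was 7111.9, 6646.9 and 6272.7 at 240 ug/ml, against 8233.4, 7402.4 and 6319.3 in control (-0.13, limma adjusted p = 0.596), so the groups overlapped. The A exon lies at chr2:215380811-215381080 of GRCh38, minus strand, is 270 bases long and keeps the reading frame. The coding exon of ASAP2, an Arf GTPase-activating protein, at chr2:9391062-9391196 (plus strand, 135 bases), distinguishes the main transcripts of a switch. Both segments are printed because they are the parts of the message that the transcripts gain or lose, in capitals, with 15 bases of the neighbouring exon on each side in lower case, from GENCODE release 29 transcripts.
FN1 extra domain A exon: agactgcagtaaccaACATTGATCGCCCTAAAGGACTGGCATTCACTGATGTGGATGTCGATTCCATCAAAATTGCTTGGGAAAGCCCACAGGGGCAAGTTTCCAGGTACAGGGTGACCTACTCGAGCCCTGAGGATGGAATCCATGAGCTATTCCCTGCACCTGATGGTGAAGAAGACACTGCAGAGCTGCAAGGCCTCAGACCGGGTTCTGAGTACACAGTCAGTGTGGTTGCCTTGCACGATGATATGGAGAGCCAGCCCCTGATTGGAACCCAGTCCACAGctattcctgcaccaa
ASAP2 exon: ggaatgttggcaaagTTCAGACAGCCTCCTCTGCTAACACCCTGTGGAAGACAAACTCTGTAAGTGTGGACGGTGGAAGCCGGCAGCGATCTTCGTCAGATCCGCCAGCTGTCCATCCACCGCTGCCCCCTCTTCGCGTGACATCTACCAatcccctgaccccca

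FN1-202, which holds the A exon, had 589.4, 761.7 and 724.5 at 240 ug/ml, against 110.1, 16.8 and 41.9 in control (3.97, limma adjusted p = 0.001 over all transcripts). FN1-211, which lacks it, had 451.9, 483.9 and 326.2, against 1407.7, 1424.0 and 1073.2 in control (-1.64, limma adjusted p = 0.0204). FN1-201 and FN1-212, which also hold it, had 422.7, 277.2 and 326.4 and 864.5, 722.3 and 814.5 at 240 ug/ml, against 589.2, 663.2 and 562.3 and 1118.4, 1035.5 and 917.3 in control. Summed over all spliced transcripts that span the position, the exon was held by 49.2%, 52.1% and 52.6% of the signal at 240 ug/ml, against 35.0%, 33.1% and 36.4% in control. The means were 51.3% ± 1.84 and 34.8% ± 1.67, a description, since FN1 was chosen for its opposed transcripts. Among transcripts longer than 7000 bases alone, a limit set after the values were seen, the shares were 78.1%, 78.8% and 83.0% at 240 ug/ml, against 56.3%, 53.7% and 58.0% in control. These are the authors' estimates per transcript, not counts of reads across the exon's junctions. The B exon was held by 33.2% ± 1.23 at 240 ug/ml and 29.4% ± 0.635 in control.

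The ASAP2 exon was held by 53.4%, 55.9% and 56.5% of the spanning signal at 240 ug/ml, against 33.1%, 41.1% and 38.6% in control. ASAP2 was chosen as a switch between these transcripts, so its shares are a description.

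**Figure D4:**
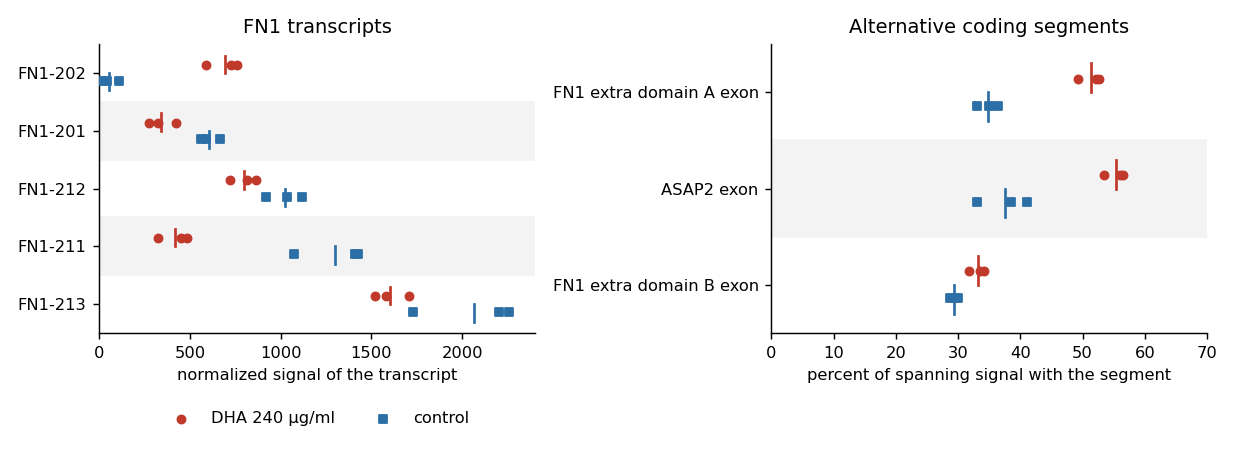
Left, normalized signal of 5 FN1 transcripts; right, percent of the signal of transcripts spanning a segment that hold it; circles are libraries at 240 ug/ml, squares controls and short lines means. FN1-202 reaches 589.4 to 761.7 at 240 ug/ml and 16.8 to 110.1 in control, and the FN1 extra domain A exon 51.3% and 34.8% (means).

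Of 9545 genes not called as a sum, 169 (1.77%) had at least 1 transcript called higher and 1 called lower. FTH1, the ferritin heavy chain that stores iron, was among the most opposed: FTH1-212 had 1023.9, 1178.7 and 1162.0 at 240 ug/ml, against 107.2, 513.3 and 186.5 in control, and FTH1-206 had 300.4, 247.1 and 322.0, against 963.0, 1043.7 and 1055.7 in control. FTH1 has many near-identical pseudogenes, so its transcript values are uncertain. CSNK1E, a kinase of the circadian clock and Wnt signalling, had CSNK1E-204 at 21.0, 20.6 and 19.0, against 0.0, 2.2 and 0.1 in control, with a gene log2 fold change of 0.04. Among shares that were not switches, FAM20C-202, a short transcript without a coding annotation from FAM20C, a secretory pathway kinase, held 48.9% ± 1.14 of its gene at 240 ug/ml and 15.2% in control (mean).

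Several of the highest noncoding genes lay beside or inside other genes that rose. HMGA2, an architectural chromatin protein of embryonic and transformed cells (chr12:65824131-65966295, plus strand), had 337.9, 335.6 and 307.2 at 240 ug/ml, against 64.1, 54.7 and 50.6 in control (2.52, SE 0.17, limma adjusted p = 6.50e-06). This gene and its neighbours were chosen after their values were seen. Most of it came from HMGA2-204, with 297.2, 290.2 and 271.3 against 60.7, 52.4 and 47.5 in control. Of 9 tested genes within 200000 bases, HMGA2 included, 5 were higher and 1 lower. Those higher were HMGA2 itself and the overlapping genes named next. The antisense HMGA2-AS1 had 5.3, 6.1 and 4.2, against 0.6, 0.2 and 0.3 in control, ENSG00000256083, also antisense, had 8.7, 8.3 and 8.5, against 0.2, 0.5 and 0.4 in control, and the pseudogene RPSAP52, which overlaps the start of HMGA2 on the minus strand, had 7.2, 6.7 and 4.9, against 1.1, 0.8 and 0.8 in control. The intronic ENSG00000277945 had 16.7, 40.8 and 23.1, against 0.0, 1.1 and 0.0 in control. All of these overlap HMGA2, and the counting's strand setting is not given, so whether their reads were told apart is unknown. Neighbours that do not overlap it did otherwise: LLPH was not called (0.07, called higher with equal totals) and TMBIM4 had 74.5, 59.2 and 68.5 at 240 ug/ml, against 138.0, 135.0 and 126.3 in control (-0.98, SE 0.10).

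A second cluster of noncoding genes on chromosome 12, also chosen after its values were seen, was higher as well. ENSG00000258088, a long noncoding RNA, had 7.7, 9.8 and 7.7 at 240 ug/ml, against 0.5, 0.3 and 0.4 in control (2.74, SE 0.16). It lies within the span of ENSG00000258077, with 5.0, 5.0 and 3.5 against 0.5, 0.7 and 0.2 in control, as do RPL10P13 (9.5, 7.9 and 8.1, against 1.1, 0.0 and 1.1 in control) and ENSG00000251893, a multi-copy small nucleolar RNA, with 67.2, 182.2 and 63.7 against 5.8, 8.8 and 15.3 in control. Because the others lie within ENSG00000258077, the levels of all 4 genes are uncertain. Outside that span, KRR1 was called higher (0.89) and GLIPR1 lower (-1.21). On chromosome 11, MYEOV had 19.0, 16 and 16.2, against 3.5, 1.8 and 2.6 in control (2.34, SE 0.18), and ENSG00000260877, the next gene downstream, had 5.2, 5.6 and 5.8, against 0.3, 0.1 and 0.3 in control (2.41, SE 0.16). CCND1 follows further along the same arm, while TPCN2, upstream of MYEOV, was not called (0.23, called higher with equal totals).

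**Figure D5:**
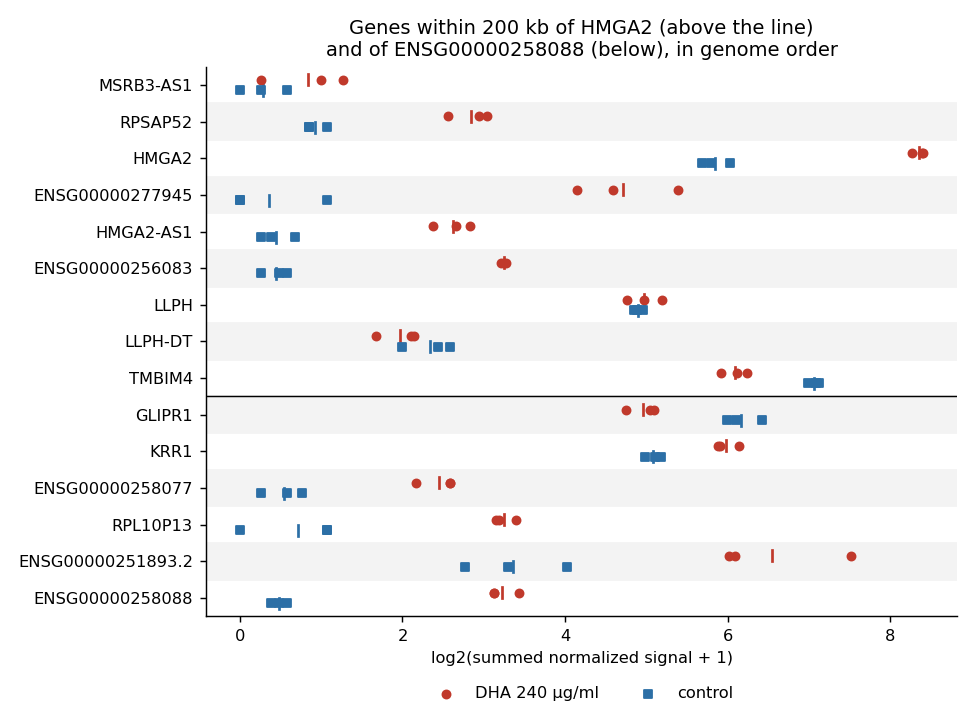
Level on the log2(summed signal + 1) scale of the tested genes within 200 kb of HMGA2 (upper block) and of ENSG00000258088 (lower block), in genome order; circles are libraries at 240 ug/ml, squares controls and short lines means. In the upper block the genes that overlap HMGA2 are higher at 240 ug/ml, and TMBIM4 is lower, at 59.2 to 74.5 on the linear scale against 126.3 to 138.0 in control.

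Of 2347 long noncoding genes 191 (8.14%) were higher and 403 (17.2%) lower (median -0.10). Both shares were below those of all tested genes, 19.7% and 23.5%. The class was not counted with equal totals. ENSG00000259342, an antisense gene, had 3.7, 1.8 and 3.3 at 240 ug/ml, against 21.1, 16.2 and 22 in control (-2.42, SE 0.22), and LINC01111 averaged 3.8 ± 0.794 at 240 ug/ml and 21.5 ± 0.854 in control (-2.24, SE 0.13).

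Between 240 and 120 ug/ml, tested directly, limma called 0 of 16789 genes, with 1331 (7.93%) at an unadjusted p under 0.05 and a smallest adjusted p of 0.0575. At the level of transcripts 16 of 61128 were called. CCND1 averaged 66.6 at 240 ug/ml and 56.8 at 120 ug/ml, MMP7 17.8 and 28.5, and the share of FN1 signal with the A exon 51.3% and 49.1%. A p above the threshold does not show that the doses act alike.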

How the data were processed

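Messenger RNA of 12 HK-2 libraries was sequenced on a DNBSEQ instrument after oligo(dT) selection and dUTP strand marking, per the labels' protocols. The deposited table gives a normalized signal per Ensembl transcript, which the authors computed on GRCh38.p14 per the submitters' processing notes. Neither labels nor header name the quantification tool, the annotation or the unit, so depth is unknown and no counting interval was computed. Transcripts were matched to genes by Ensembl identifier in GENCODE release 29 (202305 of 267165, 75.7%, holding 93.8% to 94.4% of the total in the 6 libraries compared) and summed per gene.

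Features that reached 1 in 3 or more of the 12 libraries were log2-transformed after adding 1 and fitted by limma-trend (limma 3.58.1, R 4.3.3), with a mean per group over all 12 libraries, contrast 240 ug/ml minus control, with Benjamini-Hochberg adjustment over all features and a threshold of 0.05. The share test used log2((transcript + 1)/(other transcripts of the gene + 1)) in genes with a mean sum of at least 5 in both groups. Genes named for the highest and lowest fold changes and the largest level changes were picked among called genes whose groups did not overlap. Called members of each list were named too. The members and lists were chosen with earlier results of these data known. The fits were tested on simulated data, with random normal noise and changes added only to features above the median control value. Recovery of changes in weaker features was not tested, and no outcome is given here. Alternatives changed the pseudocount, filter, scaling, length and GC trends, libraries fitted and replicate block, and left out each library, and those for the FN1 exon, retained introns and gene neighbourhoods were chosen after seeing the data. The labels do not say whether replicate numbers mark a pairing or a shared batch, and the main fit held no replicate term. Deviations of same-numbered libraries at 240 ug/ml and in control correlated at 0.018, -0.025 and 0.084, which does not settle it. Results on a few genes are not reported here.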

Additional observations from a re-analysis of the deposited data

How the results depend on the processing

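With every library scaled to an equal total, 7205 genes were higher and 1531 lower, and 15312 transcripts higher and 2955 lower. The gene counts kept within 1.5 times of the main ones under the other alternatives, at 2689 to 3073 higher and 3160 to 3742 lower with 1 library left out. Transcripts numbered 3857 to 4985 higher and 4380 to 5908 lower with 1 library left out. Transcript use depended most on the settings. Higher shares numbered 552 with a pseudocount of 0.1, 5319 without the filter, 996 with a minimum of 5, 899 with the libraries of both groups only, 481 on the share itself and 521 to 1449 with 1 library left out. Lower shares numbered 518 with a pseudocount of 0.1, 2935 without the filter, 600 with both groups only, 506 on the share itself and 353 to 840 with 1 library left out. Switches numbered 15 with a pseudocount of 0.1, 12 with both groups only, 44 with the main transcript taken from the group mean and 7 to 17 with 1 library left out. The cause was not tested.

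Between 240 and 120 ug/ml, 4 genes were called without the filter, 3 with equal totals and 3 with median-of-ratios scaling. The replicate block, a pairing that the labels do not give, left 3626 genes higher and 4275 lower, 6456 and 7033 transcripts, 1575 and 1046 shares and 29 switches. Of 351 single genes, transcripts and shares tested under the alternatives, 83 lost their call under at least 1, 3 gained one and 0 reversed. This count left out the fit on the share itself, and a feature that a filter removed did not count as a lost call. Most of the 351 were chosen as called with large changes, so a reversal was unlikely from the start. The FN1 exon difference was 23.9 percentage points in transcripts over 7000 bases, against 16.5. The unknown depth and 3 libraries a group limit what can be told of weak transcripts.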
